A study of Rattus norvegicus with 4 samples.

Results

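Genes for the receptors of acetylcholine, dopamine, serotonin, noradrenaline and adrenaline, and histamine were followed in primary hippocampal neuron cultures after knockdown of Gld2. A gene was included when its symbol in the platform annotation named a muscarinic (Chrm), nicotinic (Chrn), dopamine (Drd), serotonin (Htr), adrenergic (Adra, Adrb) or histamine (Hrh) receptor or receptor subunit, without regard to its values. This gave 52 of the 14497 genes with a symbol of their own, with 1 probe set each. They comprised 5 muscarinic, 16 nicotinic, 5 dopamine, 14 serotonin, 8 adrenergic and 4 histamine receptor genes. The cultures came from hippocampi of rat embryos (Rattus norvegicus) and were transduced either with an shRNA against Gld2 (2 cultures) or with a scrambled control shRNA (2 cultures). Gld2 (gene symbol Tent2) adds adenosines to the 3′ ends of particular mRNAs outside the nucleus. The purpose given for the series is to profile poly(A) RNA after its knockdown, and whole-transcript arrays were hybridised with RNA captured on poly(U) Sepharose and eluted by heat. The labels do not state strain, age in culture, the vector, its promoter, or whether the cultures of a group were prepared independently. The p-values therefore measure only how far these 4 cultures spread, which may be technical. Each value reflects transcript recovered through its poly(A) tail, and in such bulk RNA fewer cells of a type, less RNA per cell and a change in tail-dependent recovery cannot be told apart.

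These receptors carry the slow and modulatory inputs of the hippocampus. Acetylcholine reaches it from the medial septum, noradrenaline from the locus coeruleus, serotonin from the raphe nuclei, dopamine from the midbrain and locus coeruleus, and histamine from the posterior hypothalamus. The nicotinic subunits and the Htr3 subunits form ion channels, whereas all the other receptors act through G proteins. Gq-coupled receptors activate phospholipase C, Gs-coupled receptors raise cyclic AMP through adenylyl cyclase, and Gi-coupled and Go-coupled receptors lower cyclic AMP and open inwardly rectifying potassium channels.

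The targeted transcript was reduced. Tent2 had log2 RMA values of 9.50 and 9.35 with Gld2 shRNA, against 10.73 and 10.67 with scrambled shRNA, a log2 difference of -1.28 (limma adjusted p = 0.000754). Array medians lay between 8.41 and 8.48. The general neuronal markers Rbfox3, Tubb3, Map2, Snap25, Syn1 and Nefl had high values and 0 of 6 passed the test (limma, with 0 of 6 also at an unadjusted p under 0.05), with differences from -0.09 to -0.01. Astrocyte markers were high as well, with a median of 12.34 in the scrambled shRNA cultures. Of the other marker genes, Prox1 of granule cells (-0.59, 1 of 5 excitatory neuron markers) and Vip of interneurons (-0.43, 1 of 8 inhibitory neuron markers) fell. Gja1 of astrocytes (-0.39, 1 of 7 astrocyte markers) fell too, where 2.41% of all genes were called lower. At an unadjusted p under 0.05 in limma, 2 of 5, 2 of 8 and 1 of 7 were lower and 0 higher. Over all genes 16.2% were lower at that threshold. Values below 0 were found for 4 of 5 excitatory, 4 of 8 inhibitory and 3 of 7 astrocyte markers, against 53.8% of all genes. The medians of these lists were -0.08, -0.03 and 0.05. No marker of microglia, the oligodendrocyte lineage, dividing cells or vascular and meningeal cells passed in limma. At an unadjusted p under 0.05 were 1 of 7 (higher), 1 of 5 (lower), 1 of 3 (lower) and 2 of 4 (1 higher and 1 lower). Over all genes the share was 25.4% in either direction. Of the microglia markers 6 of 7 lay above 0, at a dim median signal of 7.16 with scrambled shRNA. The summed marker signals were 14.68 and 14.68 in the Gld2 shRNA cultures against 14.77 and 14.75 in the scrambled shRNA cultures for excitatory neurons, 14.93 and 14.88 against 14.91 and 14.95 for inhibitory neurons, and 15.17 and 15.12 against 15.15 and 15.16 for astrocytes, on the log2 scale. In the same order the sums were 10.41 and 10.41 against 10.28 and 10.31 for microglia, and 8.86 and 8.85 against 8.95 and 8.93 for dividing cells. For vascular and meningeal cells they were 10.89 and 10.96 against 10.99 and 10.97. For the oligodendrocyte lineage they were 12.605 and 12.519 against 12.591 and 12.541. The part of these marker changes in the receptor values was not tested.

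Gld2 knockdown went with few receptor changes past the threshold. The serotonin receptor gene Htr5b rose and the adrenergic receptor gene Adra1a fell, and 50 of the 52 genes did not pass an adjusted p of 0.05 (limma, Benjamini-Hochberg over all 14497 genes). The 2 calls are 3.85% of the receptor genes, against 4.10% called over all genes in either direction, so the count is near the background. By direction, 1 rise stands against 1.69% of all genes called higher and 1 fall against 2.41% called lower. Without adjustment, 16 receptor genes had a p under 0.05 with a lower value in the Gld2 shRNA cultures, 30.8% of the 52 against 16.2% of all genes, and 2 with a higher value, 3.85% against 9.24%. These 18 are 34.6% of the receptor genes, against 25.4% of all genes with an unadjusted p under 0.05 in either direction. Both Gld2 shRNA cultures lay below both scrambled shRNA cultures for 22 receptor genes (42.3%, against 34.5% of all genes) and above both for 11 (21.2%, against 24.0% of all genes). The difference lay below 0 for 30 receptor genes (57.7%, against 53.8% of all genes), and its median was -0.06 over the receptor genes and -0.02 over all genes. Centring each array on its median, another scaling, gave 12 receptor calls, 11 lower and 1 higher, where all genes gave 1367 lower and 558 higher against 349 and 245 without it (limma). The receptor calls, like those over all genes, changed when single cultures were left out, and each such fit leaves 1 culture in a group. Without Gld2 shRNA replicate 1 and replicate 2 the receptor median was -0.053 and -0.052, against -0.013 and -0.023 over all genes. Without scrambled shRNA replicate 1 and replicate 2 it was -0.062 and -0.088, against -0.020 and -0.009 over all genes.

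**Figure D1:**
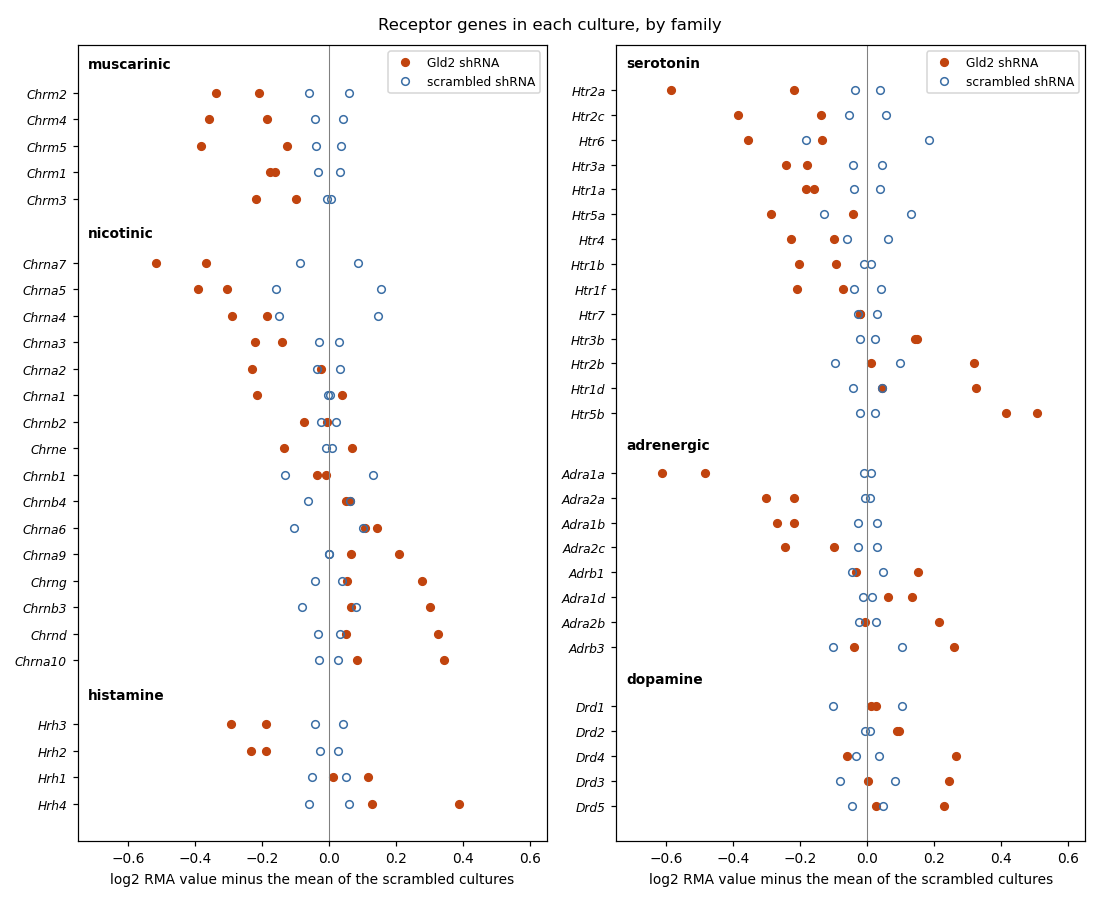
Log2 RMA value of each of the 52 receptor genes in each culture, minus the mean of the 2 scrambled shRNA cultures, by receptor family. Filled points are the Gld2 shRNA cultures and open points the scrambled shRNA cultures. All 5 muscarinic genes have both filled points left of both open points, Adra1a lies farthest left and Htr5b farthest right.

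The muscarinic receptor genes, which encode the G protein-coupled receptors for acetylcholine, had lower values in both Gld2 shRNA cultures for each of the 5 members. None passed the adjusted threshold in limma, with the smallest adjusted p at 0.108, while 4 of 5 had an unadjusted p under 0.05 with a lower value, against 16.2% of all genes. Groups that do not overlap toward lower values, found for 5 of 5 here, were found for 34.5% of all genes. The differences were alike in size, between -0.27 and -0.16 with a median of -0.25. Chrm1, the Gq-coupled receptor of pyramidal cells, had values of 11.68 and 11.69 with Gld2 shRNA, against 11.89 and 11.82 with scrambled shRNA. Chrm3, also Gq-coupled, stood at 10.74 and 10.62 against 10.83 and 10.85 in the same order. In both genes the groups did not overlap, although the gap was small. Chrm2, the Gi-coupled receptor that also acts as an autoreceptor on cholinergic terminals, had 8.10 and 7.97 with Gld2 shRNA, against 8.36 and 8.25 with scrambled shRNA. Chrm4, also Gi-coupled, had 9.41 and 9.24 against 9.55 and 9.64. For Chrm5, Gq-coupled, the values were 8.10 and 7.85 against 8.26 and 8.19. In Chrm2 to Chrm5 Gld2 shRNA replicate 2 was the lower knockdown culture, and the median of the 5 genes against the scrambled mean was -0.18 in replicate 1 and -0.34 in replicate 2. Chrm2, Chrm4 and Chrm5 passed the threshold with median centring, where 1925 of all genes passed, against 594 without it. Chrm1 and Chrm4 passed with a prior variance set by level, where 2232 genes passed in all. They also passed without genes under the median level, where 1596 of 7249 genes passed. Over the alternative settings the median of the family ran from -0.34 to -0.17. Chrm3, the longest of the 52 genes at 462074 bp in RefSeq GRCr8, had a difference of -0.16, which turned to 0.01 once a trend with genomic length was removed.

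**Figure D2:**
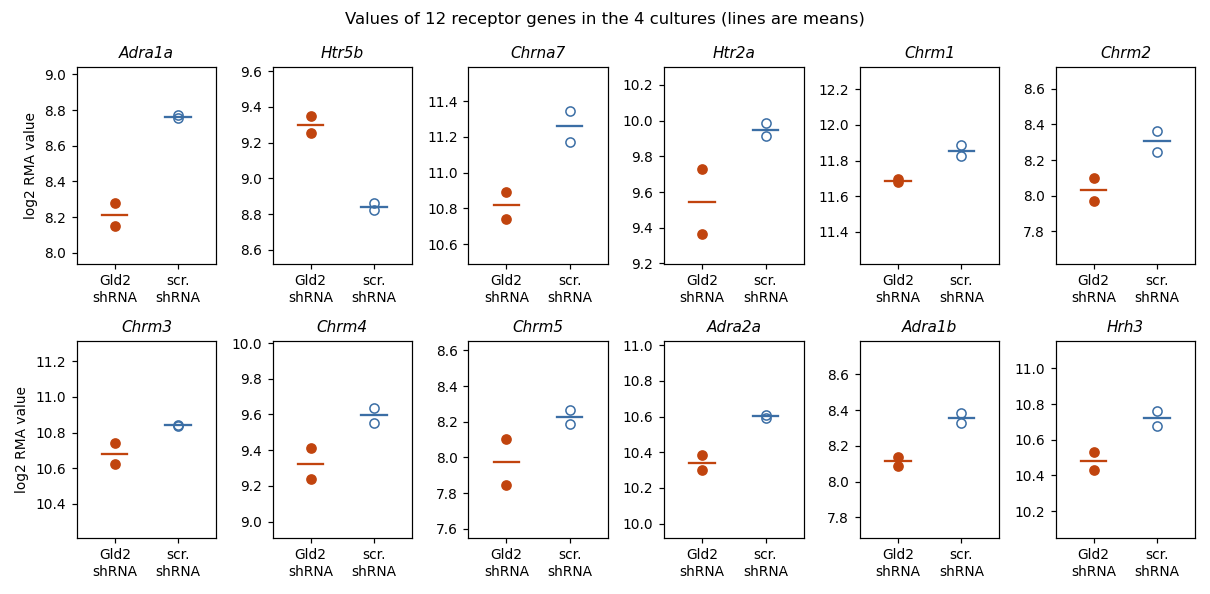
Log2 RMA values of 12 receptor genes in the 2 Gld2 shRNA cultures (filled points) and the 2 scrambled shRNA cultures (open points), with lines at the group means. Every panel spans the same log2 range. The genes were picked from the receptor genes with the smallest p, with the muscarinic family completed, a choice that favours separated groups. The groups do not overlap in any of these genes, and only Htr5b is higher in the Gld2 shRNA cultures. Over all genes, the groups did not overlap for 34.5% toward lower and 24.0% toward higher values.

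The nicotinic subunit genes, whose products form pentameric cation channels, gave differences on both sides of 0. Of 16, 0 passed the adjusted threshold in limma, 3 had an unadjusted p under 0.05, all lower (18.8%, against 16.2% of all genes), and the median was -0.03. Chrna7, whose product forms homomeric channels with high calcium permeability and is abundant in the hippocampus, had the largest difference of the family. Its values were 10.89 and 10.74 with Gld2 shRNA, against 11.17 and 11.35 with scrambled shRNA. Both knockdown cultures lay below both controls, at a log2 difference of -0.44 (standard error 0.0890) whose 95% confidence interval ran from -0.66 to -0.22 (limma adjusted p = 0.0553, just outside the threshold, with 0.000182 to 0.335 over 14 other settings, 5 of which called it). Chrnb2, which joins Chrna4 in the most common heteromeric nicotinic receptor of the brain, had 11.77 and 11.70 with Gld2 shRNA, against 11.75 and 11.80 with scrambled shRNA, so the groups overlapped and the difference of -0.04 had an interval from -0.19 to 0.12. Chrna4 itself had 10.05 and 9.95 against 10.39 and 10.09, and the controls lay farther from each other than the group means did, at a difference of -0.24. The other 2 members with an unadjusted p under 0.05 were Chrna5 (-0.35), an accessory subunit, and Chrna3 (-0.18), the alpha subunit of ganglionic receptors. Chrna5 was at -0.19 without scrambled shRNA replicate 1 and at -0.50 without scrambled shRNA replicate 2. The largest positive value was that of Chrna10, known from cochlear hair cells, at 0.21, from 8.01 and 8.28 with Gld2 shRNA, against 7.90 and 7.96 with scrambled shRNA. Its interval ran from -0.02 to 0.45, and the higher of its knockdown values was that of replicate 2. The muscle subunits Chrnd (0.19) and Chrng (0.17) and the sensory subunit Chrna9 (0.14) also had values above 0 that did not pass. The other muscle subunits, Chrna1 (-0.09), Chrnb1 (-0.02) and Chrne (-0.03), lay below 0 with overlapping groups.

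The window of 250 bases upstream of the RefSeq start of Chrna7 (build GRCr8, chr1:126249130-126249379, minus strand) is shown as the promoter of the nicotinic gene with the largest difference, with a GC box (GGGCGG or its reverse complement) in capitals.
Chrna7: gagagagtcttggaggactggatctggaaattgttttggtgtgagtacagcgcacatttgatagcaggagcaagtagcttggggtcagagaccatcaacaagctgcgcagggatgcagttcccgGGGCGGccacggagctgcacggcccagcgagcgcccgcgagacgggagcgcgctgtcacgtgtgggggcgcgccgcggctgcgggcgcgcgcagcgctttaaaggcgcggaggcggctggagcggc
Its GC content was 66%, against a median of 52% over all such windows, and the GC box was the single match in the window to the motifs searched.

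Some nicotinic genes adjoin each other on a chromosome. In the cluster on chromosome 8, Chrna5 and Chrna3 had log2 differences of -0.35 and -0.18 and Chrnb4, next to Chrna3, had 0.06. The groups overlapped in Chrnb4, its interval ran from -0.11 to 0.23, and its difference was -0.0064 without scrambled shRNA replicate 1. Chrna6 and Chrnb3 on chromosome 16 stood at 0.13 and 0.18, and Chrnd and Chrng on chromosome 9 at 0.19 and 0.17. Of the neighbouring serotonin channel genes on chromosome 8, Htr3a was at -0.21 and Htr3b at 0.14. Order along the chromosome was read from RefSeq GRCr8, and the genes of each pair named here had 0 protein-coding genes between them, except Chrna5 and Chrnb4, which flank Chrna3.

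Among the adrenergic receptor genes Adra1a fell, and it was the receptor gene with the smallest p. Adra1a, which encodes a Gq-coupled receptor for noradrenaline and adrenaline, had values of 8.15 and 8.28 with Gld2 shRNA, against 8.77 and 8.75 with scrambled shRNA. The mean was 8.21 ± 0.0898 with Gld2 shRNA and 8.76 ± 0.0136 with scrambled shRNA (SD, n = 2 each), so the gap between the groups was several times the spread within them. The log2 difference was -0.55 (standard error 0.0695), its 95% confidence interval ran from -0.72 to -0.38, and Adra1a was 1.46-fold lower (limma adjusted p = 0.0171). Adra1a no longer passed without scrambled shRNA replicate 1 (-0.54) or without scrambled shRNA replicate 2 (-0.56), and each of these fits leaves 1 scrambled shRNA culture. Over 13 other settings its difference ran from -0.61 to -0.45 and its limma adjusted p from 5.90e-06 to 0.264. Adra1b, also Gq-coupled, had 8.14 and 8.09 with Gld2 shRNA, against 8.33 and 8.38 with scrambled shRNA, a difference of -0.24 (limma adjusted p = 0.0900). Adra1d, the third member of that subfamily, had 0.10 with an interval from -0.06 to 0.25. The Gi-coupled Adra2a, the receptor behind much of the inhibition by noradrenaline in the brain, had 10.38 and 10.30 against 10.59 and 10.61, a difference of -0.26 (limma adjusted p = 0.0815). The cultures of each group lay close together in Adra2a, and the groups did not overlap. Adra2c stood at -0.17 and Adra2b at 0.10. The Gs-coupled genes Adrb1 and Adrb3 had 0.06 and 0.11, the largest positive value of the family being that of Adrb3, and their groups overlapped. Of the 8 adrenergic genes, 4 lay below 0 and 4 above, with a median of -0.06.

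The serotonin receptor genes held the receptor gene that rose and several with lower values. Htr5b, a serotonin receptor of rodents whose human counterpart is a pseudogene, counted here with the Gi-coupled receptors as a relative of Htr5a, had values of 9.26 and 9.35 with Gld2 shRNA, against 8.82 and 8.86 with scrambled shRNA. The mean was 9.30 ± 0.0653 with Gld2 shRNA and 8.84 ± 0.0300 with scrambled shRNA (SD, n = 2 each), and both knockdown cultures lay above both controls. The log2 difference was 0.46 (standard error 0.0657), its 95% confidence interval ran from 0.30 to 0.62, and Htr5b was 1.38-fold higher (limma adjusted p = 0.0256). Htr5b no longer passed without Gld2 shRNA replicate 2 (0.41, adjusted p = 0.0632) and without scrambled shRNA replicate 1 (0.44, adjusted p = 0.279) or replicate 2 (0.48, adjusted p = 0.201). Over 13 other settings the limma adjusted p ran from 0.000530 to 0.279, and the difference from 0.41 to 0.51. Htr5a itself had 8.77 and 8.53 with Gld2 shRNA, against 8.94 and 8.68 with scrambled shRNA, overlapping groups with a difference of -0.16.

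The 250 bases upstream of the RefSeq start of Htr5b (build GRCr8, chr13:35252587-35252836, minus strand) are shown as the promoter of the receptor gene that rose, again with the GC box in capitals, here on the opposite strand.
Htr5b: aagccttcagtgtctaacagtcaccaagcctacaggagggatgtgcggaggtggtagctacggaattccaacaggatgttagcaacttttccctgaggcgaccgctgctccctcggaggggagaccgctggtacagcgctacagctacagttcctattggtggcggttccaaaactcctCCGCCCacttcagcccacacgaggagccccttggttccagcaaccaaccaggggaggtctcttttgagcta
Its GC content was 56.8%, against a median of 52% over all such windows. Neither the TATA box, searched as the letters TATAAA, nor the core of the cAMP response element, searched as TGACG, was found on either strand of this window.

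The remaining serotonin receptor genes did not pass the adjusted threshold. Htr2a, the Gq-coupled receptor through which classical psychedelics act, had 9.73 and 9.36 with Gld2 shRNA, against 9.99 and 9.91 with scrambled shRNA. The groups did not overlap, but the knockdown cultures differed from each other by nearly as much as the group means did, and the difference of -0.40 had an interval from -0.71 to -0.10 (limma adjusted p = 0.123). Htr2c, of the same subfamily, had -0.26 and Htr2b had 0.17. The channel subunit genes Htr3a and Htr3b had -0.21 and 0.14. Htr1a, the Gi-coupled receptor of pyramidal cells and raphe neurons, had 9.48 and 9.45 with Gld2 shRNA, against 9.68 and 9.60 with scrambled shRNA, a difference of -0.17 with an unadjusted p of 0.0351 (limma). Of the 14 serotonin genes, 10 lay below 0 (71.4%, against 53.8% of all genes) and 4 above, at a median of -0.16. At an unadjusted p under 0.05 in limma, 4 were lower (28.6%, against 16.2% of all genes) and 1 was higher (7.14%, against 9.24% of all genes). The Gs-coupled genes Htr4, Htr6 and Htr7 stood at -0.16, -0.25 and -0.02. Htr6 was at -0.06 without scrambled shRNA replicate 1 and at -0.43 without scrambled shRNA replicate 2. Htr7 changed sign under 3 other settings, reaching 0.08 with the length trend removed.

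The dopamine receptor genes had small values above 0 that did not pass, and the sign of Drd1 and Drd4 depended on the setting. Over Drd1 to Drd5 the log2 differences ran from 0.02 to 0.13 with a median of 0.10, 0 of 5 passed in limma and 0 of 5 had an unadjusted p under 0.05. Drd5, a Gs-coupled receptor, was highest, at 8.37 and 8.58 with Gld2 shRNA, against 8.30 and 8.39 with scrambled shRNA. Drd1, the other Gs-coupled receptor, was lowest, with 7.71 and 7.69 against 7.58 and 7.78, and its difference of 0.02 took the opposite sign under 4 other settings, with cyclic loess (-0.05), median centring (-0.01), the length trend removed (-0.06) and without scrambled shRNA replicate 1 (-0.09). Drd4 had 0.10, which turned to -0.06 without Gld2 shRNA replicate 2. The median of the 5 genes was 0.02 in Gld2 shRNA replicate 1 and 0.23 in replicate 2. Only in Drd2, the main Gi-coupled dopamine receptor, did the groups not overlap, at 8.55 in both Gld2 shRNA cultures against 8.47 and 8.45 in the scrambled shRNA cultures.

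Of the histamine receptor genes, Hrh2 and Hrh3 had lower values and Hrh1 and Hrh4 higher ones, with 0 of 4 past the adjusted threshold and 3 of 4 at an unadjusted p under 0.05 in limma, against 25.4% of all genes in either direction. Hrh3, the Gi-coupled receptor that restrains histamine release from terminals, had 10.43 and 10.53 with Gld2 shRNA, against 10.76 and 10.68 with scrambled shRNA, a difference of -0.24 (limma adjusted p = 0.113). Hrh2, which is Gs-coupled, had 8.70 and 8.74 against 8.96 and 8.91, a difference of -0.21 (limma adjusted p = 0.114). In both genes the groups did not overlap. Hrh4, a receptor known mainly from blood cells, had 6.57 and 6.83 with Gld2 shRNA, against 6.50 and 6.38 with scrambled shRNA, a difference of 0.26 (limma adjusted p = 0.186). Its signal was among the dimmest of the receptor genes. Hrh1, Gq-coupled, overlapped between the groups at 0.06.

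Grouped by transduction, the median of the Gq-coupled receptors was -0.21 over 10 genes, of which 7 lay below 0 and 6 had an unadjusted p under 0.05 with a lower value (60.0%, against 16.2% of all genes). The Gi-coupled and Go-coupled receptors had a median of -0.15 over 16 genes, 9 of them below 0, the ion channel subunits -0.03 over 18 genes, 10 below 0, and the Gs-coupled receptors -0.0022 over 8 genes, 4 below 0. Over all genes 53.8% lay below 0, at a median of -0.02. These are descriptions, and differences between the classes were not tested. The median genomic length of the Gq-coupled genes was 75907 bp, against 18043 bp over all genes, and the order of the class medians changed with the setting. With the length trend removed the median was -0.14 for the Gq-coupled and -0.16 for the Gi-coupled and Go-coupled genes. When only genes above the median level were kept it was -0.17 over 5 Gq-coupled genes and -0.24 over 5 Gi-coupled and Go-coupled genes. For 3 ion channel subunits it was also -0.24. Over all genes the median was -0.019 with the length trend removed and -0.058 with only genes above the median level.

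Signal in the scrambled shRNA cultures differed widely between the genes, although probe sets differ in affinity and these signals do not rank transcripts. When all genes were split into 4 equal bins by that signal, the brightest bin held Chrm1 (11.86), Chrnb2 (11.77), Chrna7 (11.26), Chrm3 (10.84), Hrh3 (10.72) and Adra2a (10.60). These 6 are the receptor genes whose control signal stands clearest of the dim end of the array. Because this bin was set by the scrambled shRNA values alone, it favours genes that are high in those cultures. No count of lower values is therefore drawn from it. By the mean over the 4 cultures Adra2a lay in the third bin. The sign of the differences went with the signal. With 4 equal bins by the mean over the 4 cultures, 9 of 10 receptor genes in the dimmest bin (below 7.68) lay above 0, with a median of 0.15, and in that bin all genes had a median of 0.06. In the next bin the receptor median was -0.03 over 27 genes, against 0.02 for all genes. In the third bin (9.17 to 10.56) 8 of 10 receptor genes lay below 0 at a median of -0.21, against -0.10 for all genes. In the brightest bin 5 of 5 lay below 0 at a median of -0.17, against -0.03. Of all genes 33.9%, 46.2%, 75.4% and 59.6% lay below 0, from the dimmest bin to the brightest. The 8 of 10 in the third bin is thus near the share over all genes. The shift at low signal differed between the knockdown cultures, with receptor medians in the dimmest bin of 0.06 in Gld2 shRNA replicate 1 and 0.27 in replicate 2. No detection calls were used here, so which dim receptor genes are expressed at all is not known.

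**Figure D3:**
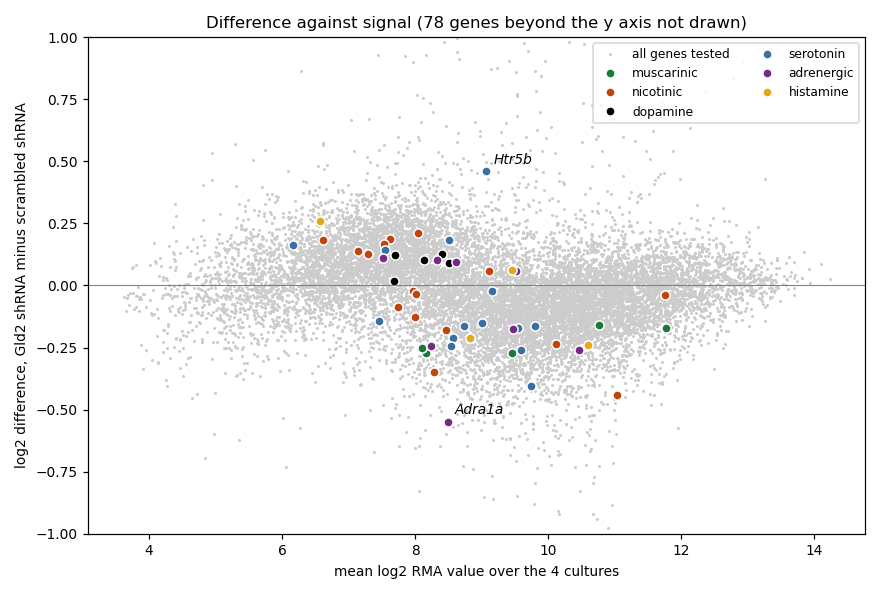
Log2 difference (Gld2 shRNA minus scrambled shRNA) against the mean log2 RMA value over the 4 cultures. Grey points are all genes tested and coloured points the 52 receptor genes by family, and 78 genes lie beyond the vertical axis. Receptor genes below 7.68 lie mostly above 0 and those above 9.17 mostly below, as do most of all genes in those ranges. Htr5b and Adra1a stand at the edges of the receptor genes.

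Genes that make, carry, break down or transduce the same transmitters were described beside the receptors. Of 75 measured genes in 8 lists, 7 fell and 1 rose, 10.7% against 4.10% of all genes called in either direction, and the falls were 9.33% against 2.41% of all genes called lower. The calls were open to the choice of cultures, and they changed when single cultures were left out, as did those over all genes. The median difference was -0.04, and 26 genes had an unadjusted p under 0.05, 21 of them lower (28.0%, against 16.2% of all genes).

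The nicotinic assembly and modulator list held 2 of the falls. Lypd6, a toxin-like protein of the Ly6 family reported to modulate nicotinic receptors, had 9.86 and 9.78 with Gld2 shRNA, against 10.47 and 10.50 with scrambled shRNA, a log2 difference of -0.67 (1.59-fold lower, limma adjusted p = 0.00605). Lypd1, a relative that binds nicotinic receptors and lowers their response, had 10.73 and 10.54 against 11.21 and 11.35, a difference of -0.64 (1.56-fold lower, limma adjusted p = 0.0245). Both genes had knockdown cultures well below both controls, and both calls held without either Gld2 shRNA culture but not without either scrambled one. Of the other 6 measured, Ric3, a chaperone of nicotinic receptors, had -0.26 (limma adjusted p = 0.0786), while Lynx1 stood at -0.12, Tmem35a, another assembly factor, at 0.09 and Ly6e at 0.24.

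Among the transporters Slc5a7, the choline transporter that limits acetylcholine synthesis in cholinergic terminals, had the largest fall of the lists. It had 7.79 and 7.50 with Gld2 shRNA, against 8.60 and 8.34 with scrambled shRNA, a log2 difference of -0.83 with an interval from -1.14 to -0.51 (1.77-fold lower, limma adjusted p = 0.0319). The cultures within each group also differed from each other, though the groups did not overlap, and the call was kept in 1 of the 4 fits without a culture, the one without Gld2 shRNA replicate 1. The vesicular monoamine transporter genes had -0.33 (Slc18a1) and 0.23 (Slc18a2), neither past the threshold. Of the 9 transporter genes 6 lay above 0, at a list median of 0.13. Of the markers of cholinergic and monoamine neurons, 0 of 7 passed in limma. All 7 lay above 0, at a median of 0.13 and a dim median signal of 7.61 with scrambled shRNA. At an unadjusted p under 0.05 in limma 1 of 7 was higher, against 9.24% of all genes, and 0 were lower. Slc18a3, the vesicular acetylcholine transporter, stood at 0.13. Of the synthesis enzymes, Tph1, the tryptophan hydroxylase mainly of peripheral tissues, rose by 0.40 at a dim signal (limma adjusted p = 0.0387). Its values were 7.15 and 7.22 with Gld2 shRNA, against 6.73 and 6.83 with scrambled shRNA, and its call too was kept only in the fit without Gld2 shRNA replicate 1 among the 4 fits without a culture. Hdc, which makes histamine, had 0.21. Among the 5 measured breakdown enzymes 0 passed in limma and 0 had an unadjusted p under 0.05, the smallest p being those of Hnmt (-0.12) and Ache (0.09).

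**Figure D4:**
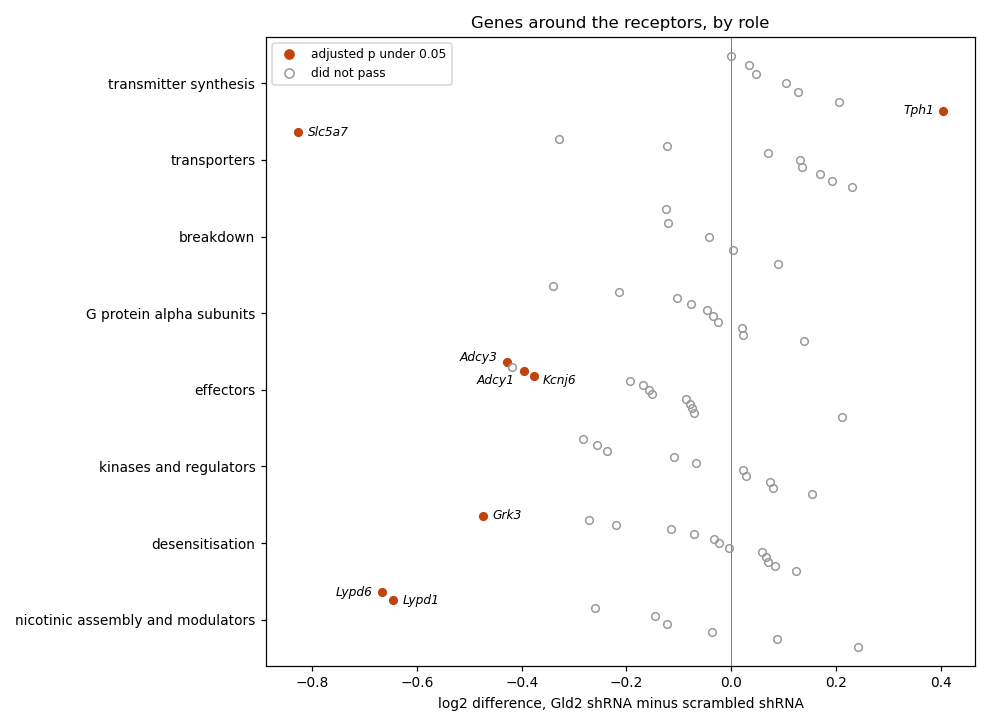
Log2 differences (Gld2 shRNA minus scrambled shRNA) of 75 genes around the receptors in 8 lists by role. Each point is a gene, ordered by its difference within a list, and filled points passed an adjusted p of 0.05. The 7 filled points left of 0 are Slc5a7, Lypd6, Lypd1, Grk3, Adcy3, Adcy1 and Kcnj6, and Tph1 is the filled point on the right.

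Of 13 measured effectors of the receptors, 3 fell (23.1%, against 2.41% of all genes called lower), 0 rose and 12 had values below 0 (92.3%, against 53.8% of all genes). The median effector signal with scrambled shRNA was 10.33. Effectors were found in each of the 4 equal bins by mean signal over the 4 cultures. From the dimmest bin to the brightest, 33.9%, 46.2%, 75.4% and 59.6% of all genes lay below 0. Adcy3, an adenylyl cyclase, had 10.06 and 10.001 with Gld2 shRNA, against 10.50 and 10.42 with scrambled shRNA (-0.43, limma adjusted p = 0.0317). Adcy1, a cyclase stimulated by calcium and calmodulin, had 11.56 and 11.49 against 11.94 and 11.89 (-0.40, limma adjusted p = 0.0341). Kcnj6, a subunit of the potassium channels that Gi-coupled receptors open, had 9.99 and 9.92 against 10.37 and 10.29 (-0.38, limma adjusted p = 0.0417). In each of the 3 the groups lay apart by several times the gap between cultures of a group, and each call was kept without Gld2 shRNA replicate 1 and lost in the fits without any other single culture. Effector genes were long, with a median of 146483 bp.

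Of the 13 measured desensitisation genes 1 fell, Grk3, a kinase that phosphorylates active receptors (7.69%, against 2.41% of all genes called lower). It had 8.52 and 8.35 with Gld2 shRNA, against 8.88 and 8.94 with scrambled shRNA (-0.47, limma adjusted p = 0.0373). That call too was kept without Gld2 shRNA replicate 1 and lost in the other 3 fits without a culture. Rgs2, which shortens Gq signalling, had -0.27 (limma adjusted p = 0.0655). None of the 10 G protein alpha subunit genes passed in limma, with 2 at an unadjusted p under 0.05, Gna14 (-0.34) and Gnaz (-0.21). Of the 10 kinase genes 0 passed in limma and 3 had an unadjusted p under 0.05 (30.0%, against 25.4% of all genes in either direction). The smallest p were those of Prkar2b (-0.28), a regulatory subunit of protein kinase A, and the protein kinase C gene Prkcb (-0.26).

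Upstream windows of 250 bases were found in RefSeq GRCr8 for 41 of the 52 receptor genes, Adra1a not being among them. A GC box (GGGCGG) was present on either strand in 20 of the 41 (48.8%), against 32.4% of 27457 windows of the same length. The TATA box occurred in 2 (4.88%, against 13.1%), TGACG, the core of the cAMP response element, in 7 (17.1%, against 19.0%) and the interferon-stimulated response element in 1, Adra2b (2.44%, against 3.29%). The full cAMP response element (TGACGTCA), which contains that core, was in 0 of the 41, against 1.70% of all windows. The median GC content of all windows was 52%, and the part of GC content in these shares was not tested.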

How the data were processed

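Poly(A) RNA of 4 rat hippocampal neuron cultures was measured, 2 per treatment. The authors deposited log2 values, and the submitters' processing notes name RMA and affy. No source used here gives versions, settings, probe set definition or build. No further normalization was applied. RMA brings arrays to a common distribution, so a shift common to most genes would not be seen.

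The platform annotation gave 1 symbol for 15209 of 28826 probe sets, and the probe set with the highest mean was used for each of 14497 genes. All 52 receptor genes had 1 probe set. Two-sided tests came from lmFit and eBayes (limma 3.58.1, R 4.3.3). The p-values were adjusted over all genes by Benjamini and Hochberg's method with a threshold of 0.05. The fit had 2 residual and 3.96 prior degrees of freedom, so the spread used for each gene also drew on all genes. The test was tried on simulated data. Differences are Gld2 shRNA minus scrambled shRNA, and intervals cover 95%. Receptor genes were named when past the threshold, among the 10 smallest p, largest in either direction in their family or in the brightest of 4 equal bins of control signal, and genes of the other lists when past the threshold or among the 2 smallest p of a list. Others are named to complete a subfamily. Members, lists and alternatives were chosen with earlier results of these data known. The number of arrays limits the precision. Upstream sequences came from RefSeq GRCr8, matched by gene identifier.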

Additional observations from a re-analysis of the deposited data

How the results depend on the processing

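With the 4 cultures left out in turn, calls ran from 85 to 2689 over all genes, 0 to 13 over the receptor genes and 0 to 18 over the genes around them, receptor genes at an unadjusted p under 0.05 from 7 to 32, the receptor median from -0.088 to -0.052, Adrb3 from -0.039 to 0.26 and Drd1 from -0.085 to 0.12. In the order all genes, receptor genes and genes around them, limma called 594, 2 and 8 as reported, 2232, 9 and 22 with a prior variance set by level, 1596, 6 and 15 without genes under the median level, 1297, 5 and 14 without genes under the 25th percentile, 1925, 12 and 15 with median centring, 313, 0 and 1 with all probe sets tested, and 1, 0 and 0 without moderation across genes. Without moderation 8 receptor genes had an unadjusted p under 0.05, and Tent2 kept its difference of -1.28 but not its call (limma without moderation, adjusted p = 0.221). With all probe sets tested, 12 receptor genes had an unadjusted p under 0.05. With the 2 level filters, which leave 15 and 42 receptor genes, the receptor median was -0.17 and -0.16. All genes kept by these filters had medians of -0.058 and -0.039. The receptor median was -0.083 with cyclic loess, -0.087 with median centring and -0.070 with the length trend removed. Over all genes it was 0.00041, -0.039 and -0.019 in the same order. Chrm3 turned to 0.0061 with the length trend removed, and Drd1 to -0.050 with cyclic loess, -0.0052 with median centring and -0.056 with the length trend removed. The cause of these changes was not tested. Of 240 values of named receptor genes under alternatives, 196 kept direction and side of the threshold, 29 gained a call, 9 lost one and 6 changed sign. The labels do not say that the final digits of the titles pair the cultures, and the differences between digits correlated at 0.143 over genes and 0.106 over probe sets. With that digit as a replicate block, 565 genes and 2 receptor genes were called, 22 receptor genes had an unadjusted p under 0.05, and Tent2 stayed at -1.28. Signal over background was not given, so dim receptor genes are the least certain.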
